A study of Mus musculus with 1666 samples.

Results

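Within the whisker follicle placode of the E12.0 mouse embryo, 76 of 267 epithelial cells carried Sox9 without Shh, which is 28.5% of them (95% Clopper-Pearson interval 23.1 to 34.3%, counting error only). They were chosen on measured values, in TPM (transcript abundance corrected for the length of a gene and the size of its library): Krt5 and Trp63 at 10 TPM or more and Col3a1 under 50 TPM mark an epithelial cell, and Sox9 at 10 TPM or more with Shh under 10 TPM marks a member. The other epithelial cells of the same plates were 64 Shh-expressing cells (Shh at 10 TPM or more) and 127 cells with both genes under 10 TPM, called Sox9-low, Shh-low cells here. In all, the series holds 1614 profiled cells from 7 stages, E11.5 to E17.0.

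The mice carry a photoconvertible nuclear fluorescent protein, Kikume Green-Red. At E12.0 whole single whisker follicles were photoconverted under a confocal microscope, and red, ITGA6-positive, CD31-negative cells were sorted singly by flow cytometry and sequenced by RamDA-seq, which reads total RNA along its full length. ITGA6 is an integrin of basal epithelium and CD31 an endothelial protein. All E12.0 classes share stage, transgene, sort and plates, and are defined apart only by the 2 genes of the rule. The labels used here give no strain, sex, driving promoter or embryo, so E12.0 is 1 sample, its 3 sequencing plates are not biological replicates, and no test was made. Each plate's value is printed in place of a replicate error.

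A hair or whisker placode is a thickening of the embryonic epidermis that forms under Wnt, ectodysplasin and Fgf signals. Its centre makes Shh, a secreted hedgehog ligand that signals to neighbouring epithelium and to the dermis below, where the receptor Ptch1 and the factor Gli1 are also transcriptional targets of the pathway. Sox9 is a transcription factor of the outer root sheath and of hair follicle stem cells, and in early follicles of mouse skin it is known from cells adjoining the Shh-expressing ones.

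The members were spread evenly over the plates, with 25 of 89 epithelial cells on plate 1 (28.1%), 27 of 91 on plate 2 (29.7%) and 24 of 87 on plate 3 (27.6%). The Shh-expressing cells were not: plate 2 gave 12, against 28 on plate 1 and 24 on plate 3. Of the 64 Shh-expressing cells, 13 also reached 10 TPM of Sox9 and are not members. Beyond these classes, 9 E12.0 cells failed an epithelial criterion, and 5 of those had 10 TPM or more of Sox9.

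Sox9 (chromosome 11, 112782224 to 112787760, mm10) ran from 10.03 to 103 TPM over the members, with a median of 23.03 TPM. The members just inside the threshold had 10.03, 10.6 and 10.7 TPM of Sox9, and the nearest cells outside it 9.82, 9.47 and 9.36 TPM. The Sox9 threshold thus cuts a continuous range: 18 members lay under 15 TPM, and 32 Sox9-low, Shh-low cells held 5 to 10 TPM. Shh (chromosome 5, 28456815 to 28467256) was separated by a gap on the members' side, with 6.36 and 4.53 TPM in the highest members and 11.3 and 12.2 TPM in the lowest Shh-expressing cells that also held 10 TPM or more of Sox9. Among cells with Sox9 under 10 TPM the gap was narrower. The highest Sox9-low, Shh-low cells there had 9.71 and 8.64 TPM of Shh, and the lowest Shh-expressing cell 11.4 TPM. Shh was listed at 0 in 41 members and reached 1 TPM in 11.

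**Figure D1:**
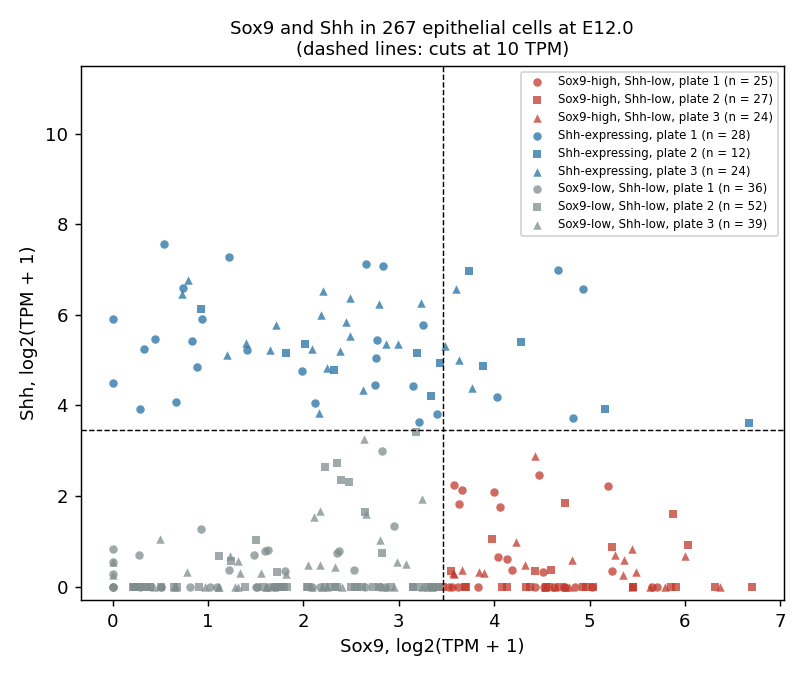
Sox9 (x axis) and Shh (y axis), both as log2(TPM + 1), in the 267 epithelial cells at E12.0. Each point is a cell, coloured by class and shaped by plate, and dashed lines mark 10 TPM; members fill the lower right, and 13 Shh-expressing cells lie right of the Sox9 line.

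All 12 markers of basal epidermis were detected among the members, with a summed level of 892 to 1197 TPM over the plates, against 772 to 1007 TPM in Shh-expressing and 1016 to 1355 TPM in Sox9-low, Shh-low cells. Krt5, Trp63 and Itga6 are among these 12, and Col3a1 is among the fibroblast and dermis markers. The rule and the sort thus fixed these sums in part beforehand. Markers of other cell types were low in every class. The 8 fibroblast and dermis markers summed to 16.8 to 22.6 TPM in members, 9.35 to 17.5 TPM in Shh-expressing and 26.4 to 28.01 TPM in Sox9-low, Shh-low cells, and Pdgfra, Twist1, Twist2 and Lum averaged under 1 TPM over all epithelial cells. The 8 dermal condensate markers summed to 23.3 to 29.3 TPM in members, 16.98 to 23.9 TPM in Shh-expressing and 16.03 to 16.3 TPM in Sox9-low, Shh-low cells, and the 6 periderm markers to 64.1 to 91.9 TPM in members, 56.6 to 75.3 TPM in Shh-expressing and 53.6 to 62.7 TPM in Sox9-low, Shh-low cells. A cell had a median of 19135 genes at or over 1 TPM in members, 20187 in Shh-expressing and 19240 in Sox9-low, Shh-low cells. Xist, the X-inactivation RNA of female cells, reached 1 TPM in 51.3% of members, 54.7% of Shh-expressing and 54.3% of Sox9-low, Shh-low cells.

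Of the 3 markers given for placode edge cells, Sox9 is the rule itself and the other pair gave unlike answers. Barx2 (chromosome 9, 31846044 to 31913462), a homeobox factor, averaged 3.58, 3.75 and 6.49 TPM in members on plates 1 to 3, against 0.493, 0.9498 and 0.392 TPM in Shh-expressing cells and 2.06, 2.57 and 4.09 TPM in Sox9-low, Shh-low cells. It was thus highest in the members on every plate, at a low level: 13 of 76 members reached 10 TPM, against 0 of 64 Shh-expressing and 5 of 127 Sox9-low, Shh-low cells. Pthlh (chromosome 6, 147252101 to 147264183), which encodes parathyroid hormone-related protein, went against the label. It averaged 7.77, 6.49 and 2.58 TPM in members, against 32.6, 42.9 and 42.7 TPM in Shh-expressing cells and 3.34, 3.09 and 1.29 TPM in Sox9-low, Shh-low cells. At 10 TPM or more it was found in 18.4% of members, 79.7% of Shh-expressing and 8.66% of Sox9-low, Shh-low cells, so at E12.0 it marks the Shh-expressing class, and the members are called by their rule below.

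Fold changes below are log2 of the ratio of class means plus 1 TPM, with plates weighted equally. A gene is counted as higher or lower where the fold is at least 2, the higher mean is at least 10 TPM, and every plate has the same direction in both the mean and the share of cells at 10 TPM or more. Against all other epithelial cells only 2 of 8979 genes were higher in members (0.0223%) and 15 were lower (0.167%). With TPM rescaled to protein-coding genes these were 12 and 21. Such genes held a median of 38.6% of TPM in members, so rescaling raises their values while the 10 TPM limits stay. The rescaled counts thus apply a lower effective limit. Before rescaling, the 2 higher genes were Sox9 and Arhgef3, a guanine nucleotide exchange factor. The lower genes included Shh itself and those of the Shh-expressing class, such as Bmp2, Dkk4, Cyfip2, Prss23 and Gad1. The other epithelial cells hold both remaining classes, which differ from each other, and each is therefore described separately.

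Against the Shh-expressing cells, 81 of 9433 genes were higher in members (0.859%) and 179 were lower (1.9%). Against the Sox9-low, Shh-low cells, 14 of 8892 were higher (0.157%) and 17 lower (0.191%). With TPM rescaled to protein-coding genes, and so a lower effective limit, these were 41 and 20. The Shh-expressing cells had more genes detected per cell, and the part of this in the comparison was not tested. Fewer genes separated the members from the Sox9-low class than from the Shh-expressing class. For scale, the Shh-expressing over the Sox9-low, Shh-low cells gave 285 higher (3.01%) and 119 lower (1.26%) of 9472 genes. Only Sox9 and Arhgef3 were higher in members than in both classes, and only Gjb2 and Sox6 were lower than in both. Of these 4, Sox9 set the rule, and the other 3 lost the call against at least one class under some alternatives, given with their values below.

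By the rule the members hold little or no Shh, and the genes that receive its signal were examined first. Ptch1, the hedgehog receptor and feedback target (chromosome 13, 63508328 to 63573598), was at its highest mean in the members. It averaged 194, 185 and 181 TPM in members, against 97.2, 99.7 and 93.9 TPM in Shh-expressing cells and 127, 112 and 109 TPM in Sox9-low, Shh-low cells. The plate means of the 3 classes did not overlap, although single cells did: members ran from 16.4 to 446 TPM (median 172), Shh-expressing cells from 10.9 to 278 TPM (median 92.8) and Sox9-low, Shh-low cells from 4.77 to 366 TPM (median 102). The log2 folds of 0.94 over Shh-expressing and 0.68 over Sox9-low, Shh-low cells are under 2-fold, so Ptch1 is not among the genes counted.

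Gli1, the other target named above, averaged 57.4, 68.1 and 71.4 TPM in members, 50.2, 62.2 and 62.4 TPM in Shh-expressing and 42.4, 59.4 and 48.9 TPM in Sox9-low, Shh-low cells, where the ranges over plates overlap. The co-receptors differed most. Gas1, a membrane protein that helps bind Shh (chromosome 13, 60174405 to 60177365), averaged 40.7, 42.5 and 52.9 TPM in members, against 3.64, 1.76 and 1.56 TPM in Shh-expressing cells and 73.3, 69.1 and 88.4 TPM in Sox9-low, Shh-low cells. It was the gene with the largest fold over the Shh-expressing cells among those named by rule (log2 fold 3.80), and was at 10 TPM or more in 69.7% of members, 6.25% of Shh-expressing and 85.04% of Sox9-low, Shh-low cells. Boc, another co-receptor, was also higher than in Shh-expressing cells (log2 fold 1.16), at 12.2, 14.9 and 13.9 TPM against 5.33, 5.58 and 5.82 TPM. Of 12 hedgehog genes, 11 reached the minimum mean against Shh-expressing cells. Of these, 2 were higher, beside 0.859% of all genes tested, and the 1 lower was Shh, which the rule sets. Against Sox9-low, Shh-low cells 10 reached it and 0 were counted. Of all genes tested there, 0.157% were higher and 0.191% lower, so a count of 0 says little about the pathway.

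The promoter windows of the target, the co-receptor and the edge marker are shown because these 3 genes order the classes differently. They run from 250 bases before to 50 after the RefSeq start in GRCm38.p6 (the mm10 build), on the minus strand, in the gene's direction, and 3 of the 6 genes looked up (Ptch1, Gas1, Pthlh, Barx2, Sox9 and Shh) matched the table.
Ptch1, chr13:63565686-63565985: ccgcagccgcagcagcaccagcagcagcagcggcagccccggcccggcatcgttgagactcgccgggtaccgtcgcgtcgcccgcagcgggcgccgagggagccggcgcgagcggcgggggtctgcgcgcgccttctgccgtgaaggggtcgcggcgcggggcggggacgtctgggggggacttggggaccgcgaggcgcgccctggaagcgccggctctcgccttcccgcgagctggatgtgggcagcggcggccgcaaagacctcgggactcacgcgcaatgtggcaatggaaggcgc
Gas1, chr13:60177486-60177785: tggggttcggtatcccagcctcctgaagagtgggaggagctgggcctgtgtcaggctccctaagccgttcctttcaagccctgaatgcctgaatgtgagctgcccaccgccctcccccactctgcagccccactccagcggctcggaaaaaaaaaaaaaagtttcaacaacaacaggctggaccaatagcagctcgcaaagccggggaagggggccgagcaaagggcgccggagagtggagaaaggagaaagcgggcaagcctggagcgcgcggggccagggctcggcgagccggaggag
Pthlh, chr6:147263964-147264263: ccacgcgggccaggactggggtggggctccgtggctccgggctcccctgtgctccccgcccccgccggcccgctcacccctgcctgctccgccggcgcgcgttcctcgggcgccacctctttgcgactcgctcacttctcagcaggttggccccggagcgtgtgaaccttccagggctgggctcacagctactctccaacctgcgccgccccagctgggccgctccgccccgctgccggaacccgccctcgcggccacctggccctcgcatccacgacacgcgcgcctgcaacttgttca
A search of both strands for ccaccca, the core of the Gli motif, and for ctttga, the core of the Tcf/Lef motif, found neither in these 3 windows, so no letters are capitalised. The first core is in 9.30% and the second in 16% of the 32851 promoter windows of this length, and no match says only that these letters are not in the windows. The Ptch1 window lies within the gene interval given above and not at its upstream end, and other Ptch1 starts were not searched.

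**Figure D2:**
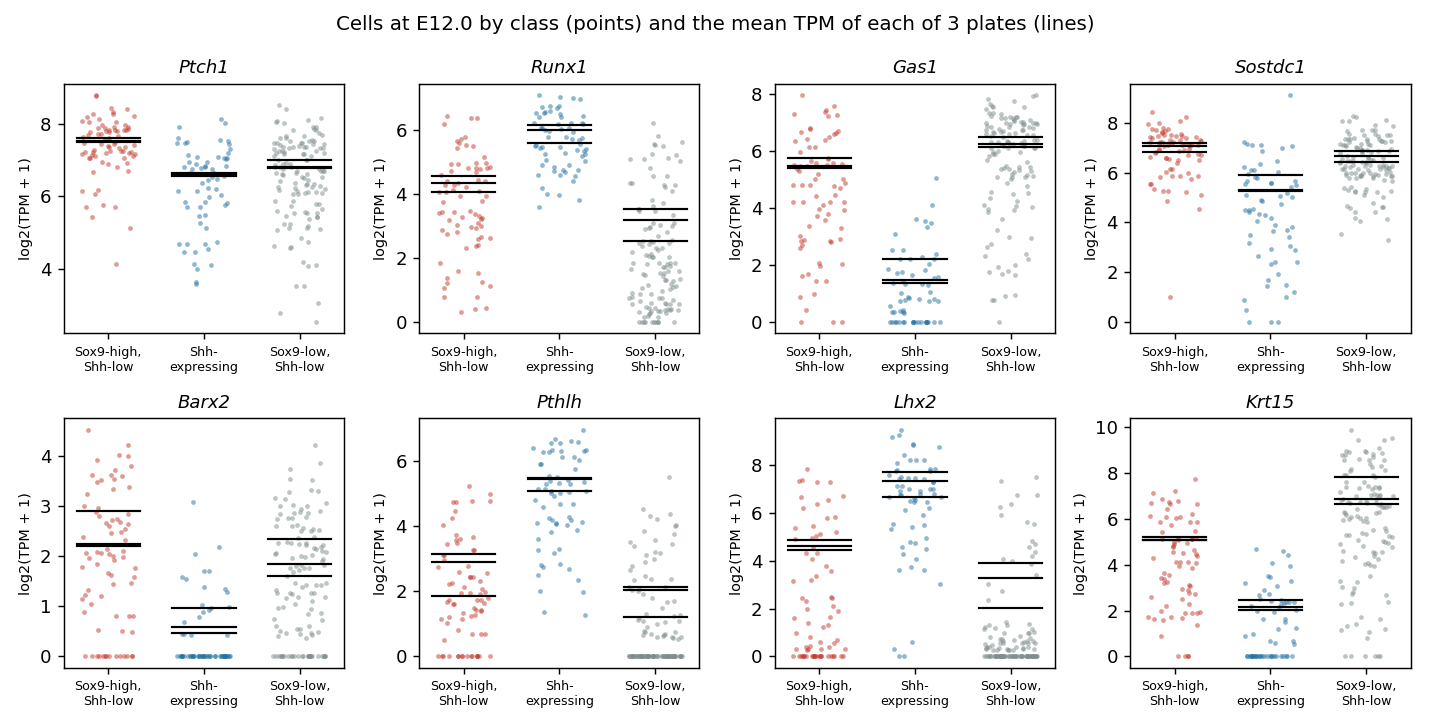
Log2(TPM + 1) of 8 genes (y axes) in single cells (points) of the 3 classes (x axes), with a line for the mean TPM of each of 3 plates. Ptch1 and Barx2 are highest in members, Pthlh and Lhx2 in Shh-expressing cells, and Gas1 and Krt15 in Sox9-low, Shh-low cells.

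The genes of the placode centre were mostly low in members. Bmp2, a BMP ligand of the early placode, averaged 5.12, 1.68 and 0.593 TPM in members, against 63.4, 42.3 and 82.5 TPM in Shh-expressing cells (log2 fold -4.20). Dkk4, a secreted Wnt inhibitor and placode marker, averaged 2.45, 1.95 and 0.610 TPM in members, against 43.7, 38.6 and 41.8 TPM in Shh-expressing cells (log2 fold -3.99). Both stood at like levels in the Sox9-low, Shh-low cells, with 3.24, 1.40 and 0.441 TPM of Bmp2 and 3.998, 1.81 and 1.15 TPM of Dkk4. The same held for Sp5, a Wnt-responsive factor (log2 fold -3.54 over Shh-expressing and 0.28 over Sox9-low, Shh-low cells), Notum, a Wnt deacylase (-3.17 and 0.45), and Scube1 (-3.01 and 0.02). Prss23 (-2.90 and -0.13), Cyfip2 (-3.01 and 0.11), Tll1 (-2.84 and -0.31) and Slco3a1 (-2.64 and -0.01) gave the same pair of values. The antisense gene Prss23os was lower too (-2.35), but strand use is not stated and its reads cannot be told apart from those of Prss23.

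The list of Wnt feedback genes, targets and inhibitors followed this. Of its 22 genes, 18 reached the minimum mean against Shh-expressing cells. Among these, 9 were lower in members, beside 1.9% of all genes tested, and 1 was higher, beside 0.859%. The median log2 fold of the 20 with a mean of 1 TPM or more was -0.99, beside -0.09 over all 25789 genes of that level, and 17 were lower on every plate, beside 28.6% of all genes. Axin2, the general feedback target, averaged 12.1, 10.7 and 10.3 TPM in members, against 41.99, 30.5 and 36.9 TPM in Shh-expressing cells and 14.7, 10.2 and 8.44 TPM in Sox9-low, Shh-low cells. The log2 fold of members over Sox9-low, Shh-low cells was -0.01. Lef1, the nuclear partner of beta-catenin, averaged 95.1, 103 and 74.1 TPM in members against 272, 327 and 351 TPM in Shh-expressing cells (log2 fold -1.79). It is not counted because nearly every cell of both classes passes 10 TPM, which leaves the share condition unmet. The exception was Sostdc1, a secreted Wnt and BMP modulator known from the rim of placodes. It averaged 112, 134 and 145 TPM in members, against 38.8, 37.1 and 58.2 TPM in Shh-expressing cells (log2 fold 1.52) and 84.8, 102 and 115 TPM in Sox9-low, Shh-low cells (0.37).

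The ligands split. Wnt10b, a placode ligand, was lower in members, at 13.45, 13.03 and 11.52 TPM against 40.3, 31.1 and 50.4 TPM in Shh-expressing cells (log2 fold -1.61). Wnt7b, an epidermal ligand, was higher, at 36.5, 47.4 and 58.9 TPM in members against 12.8, 20.2 and 14.6 TPM in Shh-expressing cells (1.53), and stood at 59.2, 67.4 and 83.2 TPM in Sox9-low, Shh-low cells. Against the Sox9-low, Shh-low cells the 11 Wnt ligands with a mean of 1 TPM or more had a median log2 fold of -0.31, and 7 of them were lower on every plate, beside 16% of all genes.

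A second group of placode genes was partly present in the members. Lhx2, a LIM homeobox factor of the placode and of follicle stem cells, averaged 28.3, 20.8 and 23.3 TPM in members, against 101, 161 and 209 TPM in Shh-expressing cells (log2 fold -2.65) and 13.8, 8.83 and 3.02 TPM in Sox9-low, Shh-low cells (1.40). Runx1, a runt-domain factor, averaged 22.5, 18.98 and 15.4 TPM in members, against 46.8, 69.4 and 62.1 TPM (-1.60) and 10.3, 7.94 and 4.76 TPM (1.202). Both thus lay between the classes on every plate. Foxi3, a forkhead factor downstream of ectodysplasin in mouse placodes, was closer to the Shh-expressing level, at 33.8, 39.4 and 33.8 TPM in members, against 34.9, 62.4 and 54.1 TPM (-0.49) and 18.5, 15.4 and 12.2 TPM in Sox9-low, Shh-low cells (1.16). Wif1, a secreted Wnt inhibitor, had log2 folds of -1.501 over Shh-expressing and 1.62 over Sox9-low, Shh-low cells. Edar, the ectodysplasin receptor, was lower than in Shh-expressing cells (15.9, 16.4 and 13.9 against 49.1, 57.6 and 68.5 TPM, log2 fold -1.86) and had a fold of 0.71 over Sox9-low, Shh-low cells.

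Fgf genes had the highest median over the Sox9-low class among the hedgehog, Wnt, BMP, ectodysplasin, Fgf, Notch and Tgf-beta lists. Over the 11 genes with a mean of 1 TPM or more the median log2 fold was 0.74, beside 0.00 for all genes, and 9 were higher on every plate, beside 14.9% of all genes. Only Dusp6, an ERK phosphatase and feedback target, was counted, at 65.2, 65.4 and 52.6 TPM in members, against 104, 147 and 139 TPM in Shh-expressing cells (-1.08) and 29.3, 30.9 and 18.03 TPM in Sox9-low, Shh-low cells (1.197). The Ets factors Etv4 and Etv5, also Fgf targets, had log2 folds of 0.92 and 0.81 over Sox9-low, Shh-low cells, and Spry2, a feedback inhibitor, 0.82. Spry4 and Fgfr3 differed from these in being higher in members than in Shh-expressing cells, with folds of 0.84 and 0.79, neither of which reaches 2-fold. Other genes higher than in Sox9-low, Shh-low cells were Cers4, a ceramide synthase (1.29), Ifitm3 (1.22), Pdzd2 (1.07), Diras2 (1.02) and the stress-induced factor Atf3 (1.07), whose plate means of 7.25, 21.1 and 5.48 TPM in members were uneven.

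Of the 12 largest folds of members over Shh-expressing cells, 7 belonged to genes whose mean was higher still in the Sox9-low, Shh-low cells. Krt15, a basal keratin, averaged 32.9, 32.9 and 35.7 TPM in members, against 3.03, 4.57 and 3.49 TPM in Shh-expressing cells (log2 fold 2.89) and 228, 101 and 116 TPM in Sox9-low, Shh-low cells (-2.10). The members' mean was thus intermediate and counted as different from both, but single members were mixed. Split at 10 TPM of Krt15 itself, 46 members averaged 53.2 TPM and 30 averaged 3.98 TPM. Lmo1, a LIM-only cofactor, averaged 20.99, 24.5 and 27.5 TPM in members, against 3.55, 4.12 and 5.05 TPM (2.27) and 33.4, 33.4 and 33.2 TPM. Igfbp5, an Igf-binding protein, averaged 121, 115 and 125 TPM in members, against 34.3, 35.6 and 37.3 TPM (1.73) and 154, 149 and 165 TPM. Anxa1 (2.33 over Shh-expressing cells), Stc2 (2.17), Fxyd7 (2.15), Cpne5 (2.04), Nell2 (1.90), Shc3 (1.77), Sstr2 (1.71) and Batf3 (1.65) complete the largest folds, with -0.55 to 0.57 over Sox9-low, Shh-low cells. Tgfbr3, a Tgf-beta co-receptor (1.45), and Lfng, a Notch-modifying enzyme (1.06), were the counted members of their pathway lists in this direction. Tgfb2 was lower in members (-2.31).

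Lower in members than in Sox9-low, Shh-low cells, besides Krt15, were the simple-type keratin Krt19 (-1.56), the serine protease Htra1 (-1.53), Skap2 (-1.55), Limch1 (-1.197), Chchd10 (-1.195), Podxl (-1.14), Plbd1 (-1.14), Rab38 (-1.10), the focal adhesion protein Tln2 (-1.09) and the Tead cofactor Vgll3 (-1.07). Skap2 was uneven over plates, at 9.70, 5.14 and 6.48 TPM in members against 38.5, 12.9 and 16.8 TPM in Sox9-low, Shh-low cells. Vgll3 was even, at 4.97, 7.86 and 6.10 TPM against 14.2, 14.3 and 14.3 TPM.

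Few genes had their extreme in the members. Arhgef3 (chromosome 14, 27114899 to 27403911) averaged 24.3, 17.1 and 18.1 TPM in members, against 10.2, 7.27 and 9.45 TPM in Shh-expressing cells (log2 fold 1.06) and 8.27, 10.4 and 8.76 TPM in Sox9-low, Shh-low cells (1.03). Both folds lay close to the 2-fold limit, and over the alternatives they ran from 0.76 to 1.23 and from 0.71 to 1.22. At least one of them was under 2-fold, so that Arhgef3 no longer counted as higher than in both classes, at a pseudocount of 5 TPM, with means of log2 values, with thresholds of 5 or 20 TPM, with Shh at 1 TPM, with Col3a1 at 10 TPM, and without plate 1. It reached 10 TPM in 68.4% of members, 34.4% of Shh-expressing and 32.3% of Sox9-low, Shh-low cells. Nfatc1, a stem cell factor of the later bulge, had the same shape at a level just under the minimum for counting, with 9.72, 6.83 and 12.1 TPM in members, 4.45, 1.73 and 4.10 TPM in Shh-expressing and 5.27, 2.74 and 3.003 TPM in Sox9-low, Shh-low cells, and reached 10 TPM in 25% of members, 6.25% of Shh-expressing and 6.30% of Sox9-low, Shh-low cells. Sox6, a SoxD factor, was lowest in members, at 8.72, 6.61 and 8.82 TPM, against 36.9, 26.6 and 20.6 TPM in Shh-expressing cells (-1.68) and 20.9, 16.5 and 16.2 TPM in Sox9-low, Shh-low cells (-1.06). Gjb2, connexin 26 of gap junctions, averaged 20.6, 22.2 and 16.02 TPM in members, against 44.5, 64.9 and 35.3 TPM in Shh-expressing cells (-1.26) and 74.6, 55.8 and 54.1 TPM in Sox9-low, Shh-low cells (-1.60). Sox6 came under 2-fold against the Sox9-low, Shh-low cells at a pseudocount of 5 TPM (-0.81), with thresholds of 20 TPM (-0.74) and without plate 1 (-0.99). Gjb2 did so against the Shh-expressing cells with means of log2 values (-0.99) and with thresholds of 5 TPM (-0.88) or 20 TPM (-0.83). Sox13, also of the SoxD group, was lower only against Shh-expressing cells (-2.63), with a fold of 0.92 over Sox9-low, Shh-low cells.

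Across genes the members lay nearer to the Sox9-low class. The 284 genes other than Shh that were higher in Shh-expressing than in Sox9-low, Shh-low cells were placed on a scale where 0 is the Sox9-low level and 1 the Shh-expressing level, on log2(mean TPM + 1). The median position of the members was 0.26 (middle 50% of genes 0.12 to 0.41), with 28 genes below 0, 212 between 0 and 0.5, 44 from 0.5 to 1 and none above 1. On single plates the median was 0.33, 0.23 and 0.25. For the 119 genes lower in Shh-expressing cells it was 0.30, and 0.39, 0.23 and 0.26 on plates 1 to 3. Genes differed widely: Cers4 (0.82), Foxi3 (0.70), Ifitm3 (0.54) and Dusp6 (0.53) lay far along, Runx1 (0.43), Lhx2 (0.35), Edar (0.28) and Pthlh (0.25) part of the way, and Bmp2 (0.08), Wnt10b (0.02), Axin2 (-0.01) and Dkk4 (-0.09) at the Sox9-low end. The placement shares its 2 end points with the choice of genes and is a description of these cells.

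**Figure D3:**
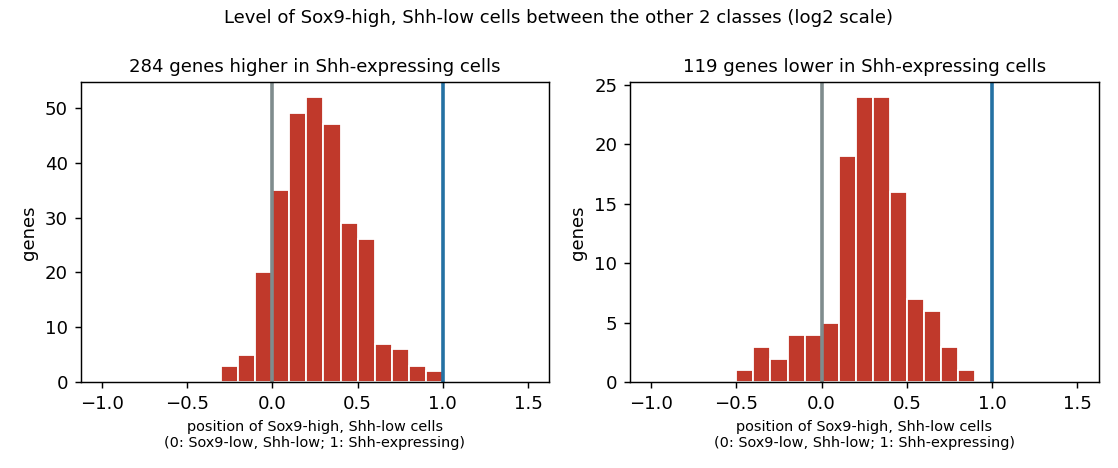
Number of genes (y axis) by the position of the members on a log2 scale from Sox9-low, Shh-low cells (0, grey line) to Shh-expressing cells (1, blue line), for the 284 genes higher and the 119 genes lower in Shh-expressing cells. Most genes lie between 0 and 0.5.

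Cell cycle genes followed the Sox9-low class. All 15 S phase genes were higher in members than in Shh-expressing cells on every plate, as were all 15 mitosis genes, beside 17.2% of all genes. The median log2 fold was 0.74 for S phase and 0.68 for mitosis genes, and only Rrm2 (1.40) and Ccne1 (1.24) of the first list and Cdk1 (1.33) of the second passed 2-fold. Over Sox9-low, Shh-low cells the medians were 0.08 and 0.02, and none was counted. Rrm2, a ribonucleotide reductase subunit used in DNA synthesis, averaged 114.2, 190 and 196.2 TPM in members, against 69.4, 49.1 and 69.2 TPM in Shh-expressing and 128, 138 and 190 TPM in Sox9-low, Shh-low cells. Mki67, the proliferation antigen Ki-67, reached 10 TPM in 72.4% of members, 32.8% of Shh-expressing and 72.4% of Sox9-low, Shh-low cells. No cell was assigned a phase.

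**Figure D4:**
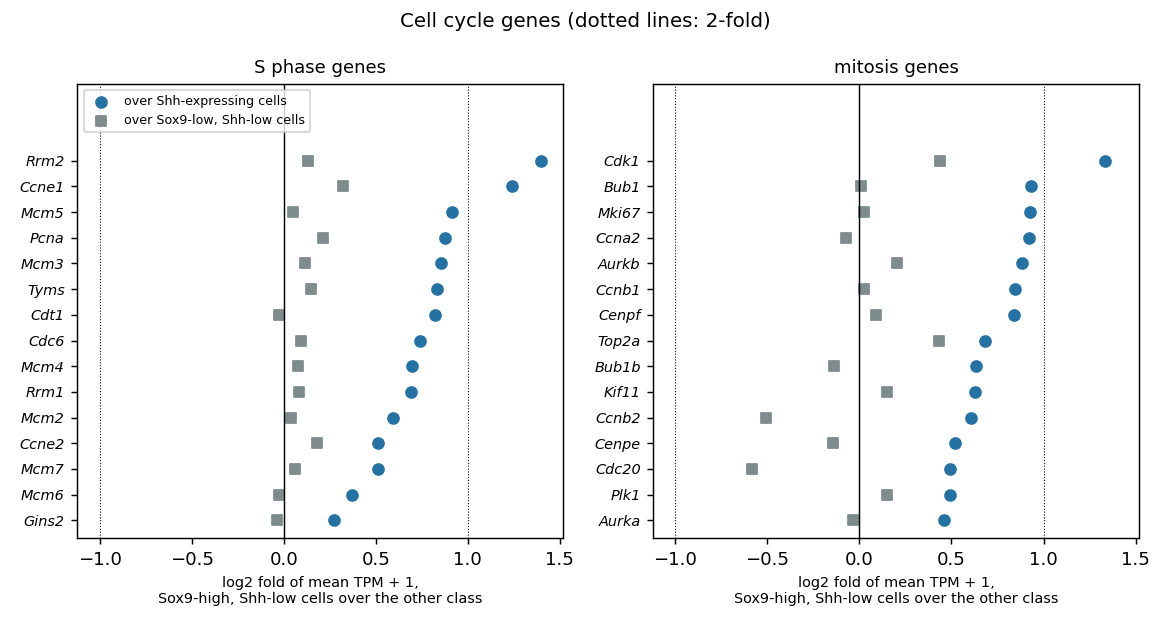
Log2 fold of mean TPM + 1 (x axes) of 15 S phase and 15 mitosis genes (y axes), for members over Shh-expressing cells (circles) and over Sox9-low, Shh-low cells (squares). All circles lie above 0, and the squares run from -0.58 (Cdc20) to 0.44 (Cdk1).

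Other lists held few counted genes. The suprabasal and upper follicle lists could not be compared, since 0 of 10 and 1 of 8 genes reached the minimum mean of 10 TPM. Of 14 cadherin and planar polarity genes 8 reached it, and 0 were counted in any comparison. Of 14 integrin subunits only Itga9 was counted (lower than in Shh-expressing cells, -1.07), and of 24 matrix and basement membrane genes only Nid1 (-1.48). With 0.0223 to 1.9% of all tested genes counted in each direction of the 3 comparisons, such small counts say little about these lists. The nerve marker Tubb3 was lower in members than in Shh-expressing cells (-1.71), and the sum of the 8 nerve and Schwann markers was 19.6 to 26.4 TPM in members against 27.6 to 41.03 TPM in Shh-expressing cells. Immediate early and stress genes, which cell handling can raise, had a median log2 fold of 0.26 over Shh-expressing and 0.40 over Sox9-low, Shh-low cells, and their part in the other differences was not tested.

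The members were not uniform. Lhx2 was at 10 TPM or more in 25 of them and under it in 51, with 11 of 25 such cells on plate 1, 4 of 27 on plate 2 and 10 of 24 on plate 3. Members with Lhx2 averaged 33.5 TPM of Runx1, against 11.9 TPM in those without, 24.5 against 10.99 TPM of Edar and 52.95 against 27.4 TPM of Foxi3. Follistatin, an activin and BMP antagonist (Fst), averaged 16.9 against 3.77 TPM, Nfatc1 16.96 against 5.78 TPM, and Pthlh 8.47 against 4.30 TPM. Krt15 was the reverse, at 14.8 TPM in members with Lhx2 against 43.1 TPM in those without. Sox9 itself (26.8 against 30.3 TPM), Ptch1 (206 against 177 TPM) and Mki67 (34.8 against 36.3 TPM) stood at like levels in both, and the mean number of genes detected was 19418 against 18973. Some Sox9-low, Shh-low cells also passed 10 TPM of Lhx2, up to 178 TPM, and that class was not split in this way.

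Over the 76 members, Spearman's rank correlation was 0.68 between Runx1 and Edar, 0.64 between Edar and Lgr6, 0.60 between Lhx2 and Runx1 and 0.54 between Pthlh and Runx1. Krt15 had a correlation of -0.47 with Edar and -0.44 with Lhx2, and Barx2 had -0.31 with Pthlh. Sox9 had 0.01 with Lhx2 and 0.11 with Pthlh. These are descriptions over cells that share plates and a TPM total, and the correlation with the number of detected genes was 0.25 for Lhx2, 0.24 for Runx1 and 0.32 for Edar.

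The 13 Shh-expressing cells that also held Sox9 were compared with the other 51. Lhx2 averaged 80.1 TPM in the 13 cells and 171.1 TPM in the 51, Dkk4 16.8 and 48.5 TPM, and Bmp2 45.3 and 72.1 TPM, while Pthlh averaged 37.03 and 38.6 TPM and Ptch1 84.5 and 99.5 TPM. In Pthlh and Ptch1 they stood with the Shh-expressing class and not with the members.

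The same rule was applied to every stage. At E11.5, where cells were sorted without photoconversion, 2 of 54 epithelial cells met it (3.70%, interval 0.45 to 12.7%), followed by 76 of 267 at E12.0. On the 5 later days it found 38 of 53 (71.7%), 142 of 159 (89.3%), 105 of 144 (72.9%), 148 of 178 (83.1%) and 127 of 180 (70.6%), from E13.0 to E17.0. The rule is less selective in the later follicle, where most epithelial cells meet it, so the later cells are not the same class by this rule alone. The edge markers were in fewer of these cells at E12.0 than on the 5 later days. Among the cells that met the rule, Pthlh reached 10 TPM in 18.4% at E12.0 and in 84.2, 61.97, 75.2, 87.8 and 96.9% on the 5 later days. Barx2 did so in 17.1% at E12.0 and in 84.2, 69.01, 87.6, 88.5 and 100% on those days. Nfatc1 averaged 9.46 TPM at E12.0 and 83.6 TPM at E13.0, and Krt17, an outer root sheath keratin, 8.05 and 636 TPM. The placode genes Foxi3 and Lef1 were lower on each later day than at E12.0. Foxi3 averaged 35.8 TPM at E12.0 and 16.4, 5.12, 2.66, 0.720 and 0.218 TPM on the 5 later days. Lef1 averaged 91.3 TPM at E12.0 and 19.001, 25.5, 35.03, 25.98 and 6.12 TPM on those days, with no steady fall between them. In the 2 cells at E11.5, Lef1 averaged 117.6 TPM, Foxi3 was listed at 0, and Barx2 averaged 88.1 TPM with 1 of the 2 at 10 TPM or more. Each stage is 1 sample.

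**Figure D5:**
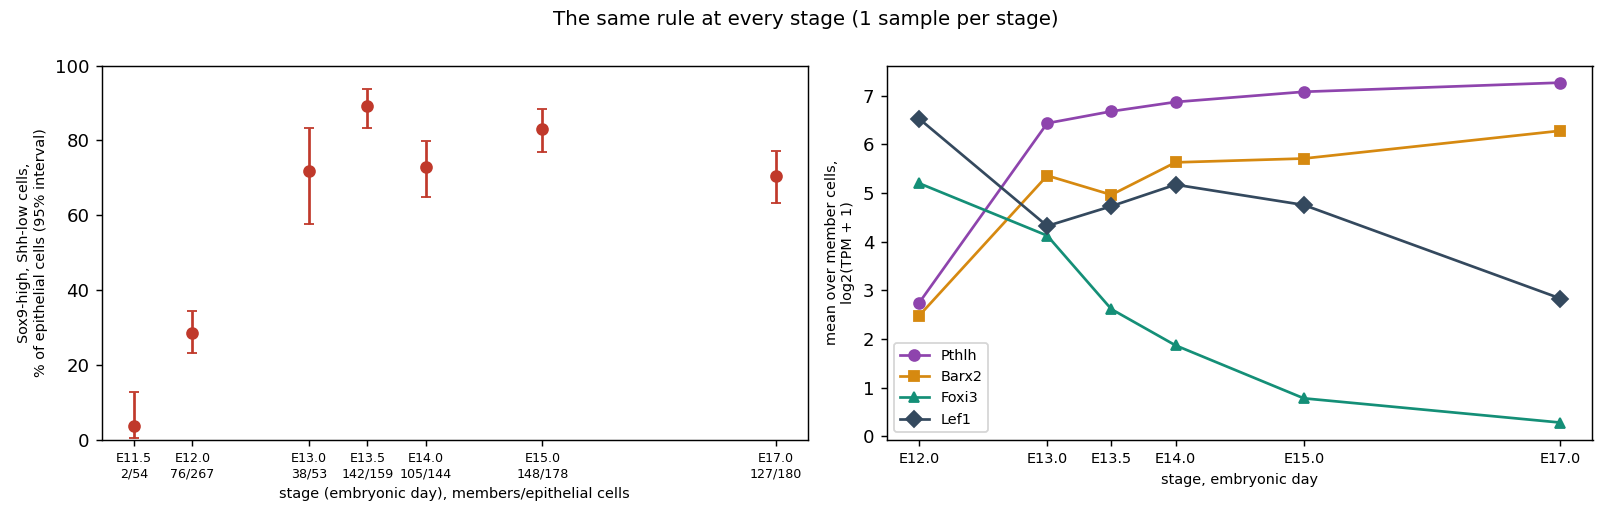
Left, share of epithelial cells that met the Sox9-high, Shh-low rule (y axis, %, with 95% intervals) by embryonic day (x axis), with cell numbers under each day. Right, from E12.0 on, log2(mean TPM + 1) in these cells of Pthlh and Barx2, which are low at E12.0 and high from E13.0 on, and of Foxi3 and Lef1, which are highest at E12.0 among the days plotted.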

How the data were processed

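Single whisker follicle cells were profiled by RamDA-seq in separate wells, without cell barcodes shared between libraries. The authors deposited one table of TPM for 49662 gene symbols, summed over genes that share a symbol. Per the submitters' processing notes, the tools were HISAT2 (2.0.4), bcl2fastq (1.0) and, from Subread (1.5.0), featureCounts, on the mm10 build; the annotation release and strand setting are not given in the sources used here. Of 280 labelled E12.0 cells, 4 of low quality have no column. TPM keeps no depth, so read depth is unknown, no cell was thinned, and a cell's count of genes over 1 TPM stands in for it. TPM columns of the E12.0 epithelial cells total 997661 to 999516. A ribosomal sequence symbol, Mir6236, took about 23.4% of TPM in the members, against 23.2 and 23.5% in the Shh-expressing and Sox9-low, Shh-low cells, and all levels are relative to that total. Unused columns: 0. One pathway gene is not reported here. Doublets were not called, since cells were sorted singly.

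Plate means of TPM were averaged over the 3 plates with equal weight, and folds used a pseudocount of 1 TPM. The fold and call procedure was tested on simulated data. No test was possible with 1 sample, so shares carry exact Clopper-Pearson 95% intervals, which cover counting error only. Genes are named where they set the rule, belong to one of 37 lists, or are among the 12 largest folds each way in a comparison. Predicted, ribosomal, mitochondrial and small RNA symbols were passed over. The members and lists were chosen with earlier results of these data known. Alternatives covered the pseudocount, minimum level, averaging, scaling, thresholds, detected genes, plates and, added later, the share condition. Gene positions are from GENCODE M21 (GRCm38, the mm10 build), and promoter windows from RefSeq. Calculations ran in Python 3.11.15 (pandas 2.3.3, numpy 2.4.6, matplotlib 3.10.9, scipy 1.17.1).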

Additional observations from a re-analysis of the deposited data

How the results depend on the processing

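The folds of named genes and the counts of genes were both recomputed. The folds belong to genes already chosen for their size and for the same direction on every plate. A change of sign was therefore unlikely from the start. Of 100 counted folds, 1698 values were recomputed under 17 alternatives: 1487 moved by less than the spread between plates, 211 by more, and none changed sign. Counts below are given as higher and lower in members against all other epithelial cells, then Shh-expressing, then Sox9-low, Shh-low cells, where 2 and 15, 81 and 179, and 14 and 17 genes were reported. They were 4 and 18, 96 and 193, 21 and 23 at a pseudocount of 0.1 TPM, and 1 and 10, 43 and 101, 7 and 5 at 5 TPM. With a minimum mean of 1 TPM, and equally with none, they were 40 and 145, 217 and 423, 85 and 113. Means of log2 values gave 8 and 8, 181 and 205, 30 and 26. Protein-coding rescaling, with its lower effective limit, gave 12 and 41 higher genes against all others and Sox9-low, Shh-low cells. Cells with at least 19489 detected genes, the median, gave 24 and 42 against all others and 50 and 43 against Sox9-low, Shh-low cells. Thresholds of 20 TPM gave 7 higher genes against all others, and Shh at 1 TPM gave 4 and 17, 46 and 125, 34 and 22. Thresholds of 5 TPM, a Col3a1 limit of 10 TPM, median-of-ratios scaling, pooled cells and, chosen after seeing the data, no share condition kept each count within 1.5 times, as the alternatives above did for counts not printed. Counts of like size did not hold the same genes. Against Shh-expressing cells, 33 of 81 higher and 111 of 179 lower genes were shared with the cells over the median of detected genes. With protein-coding rescaling 56 and 105 were shared, but genes that are not protein-coding were left out there and could not be shared. Leaving out each plate in turn gave 7 to 13 and 21 to 37, 80 to 145 and 209 to 224, 25 to 39 and 15 to 32 genes; the rule asks for agreement on every plate, so fewer plates admit more genes. Without plate 1 the counts over Shh-expressing cells were 145 and 224. The cause of the other shifts was not tested. The share of members was 38.95% with thresholds of 5 TPM and 19.1% with 20 TPM, and 27.8 to 28.9% without each plate. Under the scaling alternatives the median of all tested genes shifted by at most 0.05 on the log2 scale. No paired analysis was possible because no result comes from a test; the rule itself compares classes within each of the 3 plates.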
